A study of Mus musculus with 7 samples.

Results

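The genes described here encode 10 myeloid C-type lectin receptors: Clec1b, Clec7a, Clec4n, Clec4d, Clec4e, Clec4a1, Clec4a2, Clec4a3, Clec12a and Clec2d. They were picked by symbol from the 26143 rows of the count table that carry one, and the set was chosen from measured values of these same libraries, because Clec1b differed among the knockout libraries. The levels of the 10 genes in the knockout and wild-type groups are therefore given as a description, and no p-value is given for any of them. The libraries hold RNA of alveolar macrophages, which patrol the air sacs of the lung, sorted from C57BL/6 mice aged 4 months. There were 4 libraries of wild-type mice (WT 1 to WT 4) and 3 libraries of mice of the Cish KO genotype (KO 1 to KO 3), and no treatment is named for either group. Cish encodes an intracellular brake on cytokine receptor signalling, and the series asks how the loss of this brake affects the lung-specific state of the macrophages. Whether the libraries stand for different mice is not stated, so p-values measure only how far these libraries vary.

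C-type lectin receptors are surface proteins that myeloid cells use to sense sugars and lipids of microbes as well as products of damaged cells. Activating members signal through an ITAM or hemITAM tyrosine motif, in their own tail or in the partner chain Fcer1g, to the kinase Syk and the adaptor CARD9, which turn on NF-kB. Inhibitory members carry an ITIM motif that recruits phosphatases. In the lung, alveolar macrophages are known for taking up fungal particles through Clec7a, also called Dectin-1. In mouse these receptor genes sit in clusters on chromosome 6, next to the receptors of natural killer cells.

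Total counts per library lay between 26780291 and 34483612. Levels are given as CPM, counts scaled to library size with TMM factors, which assume that most genes are unchanged. The targeted gene Cish stood at 29.6 to 67.9 CPM in WT and 10.9 to 14.3 CPM in KO. The summed level of the 15 alveolar macrophage markers was 36552 to 72182 CPM in WT and 61178 to 93145 CPM in KO, led by Chil3, and none of the 15 was at 0. Chil3 alone stood at 16623 to 50491 CPM in WT and 40503 to 72178 CPM in KO, and the higher sum in KO rests on it. Among the other markers, Siglecf and Ear1 were lower in every KO library than in any WT library, Mrc1 was higher, and the rest overlapped. Lists of markers of other cells summed to far less. Monocyte markers, led by Nr4a1, summed to 588 to 1250 CPM in WT and 491 to 845 CPM in KO. Nr4a1 alone stood at 433 to 1065 CPM in WT and 352 to 498 CPM in KO. Fn1 stood at 99.8 to 235 and 78.9 to 331 CPM, and each other marker of that list at no more than 24.5 CPM. Epithelial and endothelial markers, led by Epcam, summed to 196 to 381 CPM in WT and 181 to 199 CPM in KO. Without Epcam the other 9 markers of that list summed to 46.8 to 114 CPM in WT and 107 to 172 CPM in KO, and all 9 had the higher mean in KO. The lists for interstitial macrophages, dendritic cells (led by Batf3), neutrophils (S100a8), lymphocytes (Cd3e), platelets (Pf4) and eosinophils or mast cells (Cpa3) each summed to at most 35.3 CPM in any library. The neutrophil list had 1 of its 10 markers at 0 in every library, and the eosinophil and mast cell list had 3 of 8 at 0.

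Sequence around the annotated start of 3 neighbouring members is shown first, because Clec1b is the gene whose libraries split and Clec12a and Clec7a are the members on either side of it. Each window runs from 250 bases before to 50 bases after a RefSeq start on build GRCm38.p6, 5′ to 3′ on the strand of the gene. Capitals mark motif matches on either strand. One motif searched was GAGGAA, the core of sites of the myeloid factor PU.1. For STAT factors the letters were TTCNNNGAA, for C/EBP factors TTGCNNAA. The search for AP-1 sites used TGANTCA. Sites of the GATA family were searched as AGATAA. None of the matches shown overlap one another. The Clec1b window is chr6:129397047-129397346 on the plus strand, the Clec12a window chr6:129349994-129350293 on the plus strand, and the Clec7a window chr6:129472736-129473035 on the minus strand.
Clec1b: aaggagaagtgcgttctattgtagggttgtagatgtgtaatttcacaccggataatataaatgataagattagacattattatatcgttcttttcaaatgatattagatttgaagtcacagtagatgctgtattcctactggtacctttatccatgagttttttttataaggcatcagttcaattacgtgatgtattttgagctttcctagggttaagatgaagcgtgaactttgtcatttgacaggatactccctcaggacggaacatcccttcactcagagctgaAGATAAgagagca
Clec12a: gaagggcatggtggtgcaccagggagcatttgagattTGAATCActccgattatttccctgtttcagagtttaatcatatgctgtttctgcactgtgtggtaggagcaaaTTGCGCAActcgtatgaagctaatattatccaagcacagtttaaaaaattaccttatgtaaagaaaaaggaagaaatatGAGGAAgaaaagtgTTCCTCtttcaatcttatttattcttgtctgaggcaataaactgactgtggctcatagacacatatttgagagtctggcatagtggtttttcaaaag
Clec7a: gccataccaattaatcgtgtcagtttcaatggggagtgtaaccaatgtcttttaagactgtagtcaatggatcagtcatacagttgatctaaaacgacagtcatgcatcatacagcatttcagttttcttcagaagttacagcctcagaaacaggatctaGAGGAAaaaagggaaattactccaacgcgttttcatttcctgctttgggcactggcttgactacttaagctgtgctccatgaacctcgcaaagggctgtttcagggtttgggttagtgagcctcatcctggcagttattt
Of the 10 members, 9 had such a window by symbol. The PU.1 core was found in a window of 6 of these 9 genes, namely Clec7a, Clec4a1, Clec4a3, Clec4d, Clec4e and Clec12a. It was in 28.3% of 32851 windows of all genes. Clec7a and Clec4a3 have 2 windows each, and the first window of Clec4a3 had no match. A count of genes and a share of windows are thus unlike measures. The Clec1b window held none of the PU.1, STAT, AP-1 or C/EBP letters and had 1 GATA match, 38 bases into the transcript, a motif present in 11.2% of all windows. Clec12a also held an AP-1 match (7.81% of all windows) and a C/EBP match (10.8%), Clec4e a C/EBP match, and Clec4a2 an AP-1 and a STAT match (8.30%). These are matches of letters and not measured binding sites.

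Clec1b, or CLEC-2, is a hemITAM receptor for podoplanin and is best known from platelets. Its level was 110 CPM in WT 1, 117 in WT 2, 125 in WT 3 and 177 in WT 4. It was 4.62 CPM in KO 1, 4.47 in KO 2 and 159 in KO 3. KO 1 and KO 2 thus stood far below every WT library, while KO 3 lay between WT 3 and WT 4. In raw counts, WT libraries held 3735 to 5649 reads of Clec1b, KO 1 held 140, KO 2 held 115 and KO 3 held 4323. The WT mean was 28.6 times the level in KO 1 and 29.6 times that in KO 2, whereas KO 3 stood at 1.20 times the WT mean. In bulk RNA, fewer cells that express the gene and less of its RNA per cell cannot be told apart.

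Group means describe Clec1b poorly. The mean over the 4 WT libraries was 132 ± 30.4 CPM (SD), that over the 3 KO libraries was 56.0 ± 89.2 CPM (SD), and the fitted log2 fold change of KO over WT was -1.24 with an SE of 1.04. Without KO 3 it was -4.86. With WT 4 left out as well, which leaves WT 1 to 3 against KO 1 and 2, it was -4.69 with an SE of 0.12. KO 3 therefore sets the fitted size and the SE for this gene. The small SE followed from leaving out the library that differs. It does not measure how precisely an effect of genotype is known.

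Transcripts of platelets were scarce in all libraries. Of 12 platelet and megakaryocyte markers, 11 stayed under 1 CPM in every library. The 12 summed to 2.90 to 5.76 CPM in WT, 6.57 in KO 1, 4.97 in KO 2 and 10.8 in KO 3. The chemokine Pf4 made up most of the sum, with 1.94 to 4.69 CPM in WT, 5.15 in KO 1, 3.11 in KO 2 and 10.1 in KO 3. The sum was highest in KO 3 through Pf4 alone, and in KO 1 and KO 2 it was within or just above the WT range. What remained of the sum besides Pf4 was lower in KO 3 than in KO 1 or KO 2. The part of platelet RNA in the Clec1b values was not tested.

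**Figure D1:**
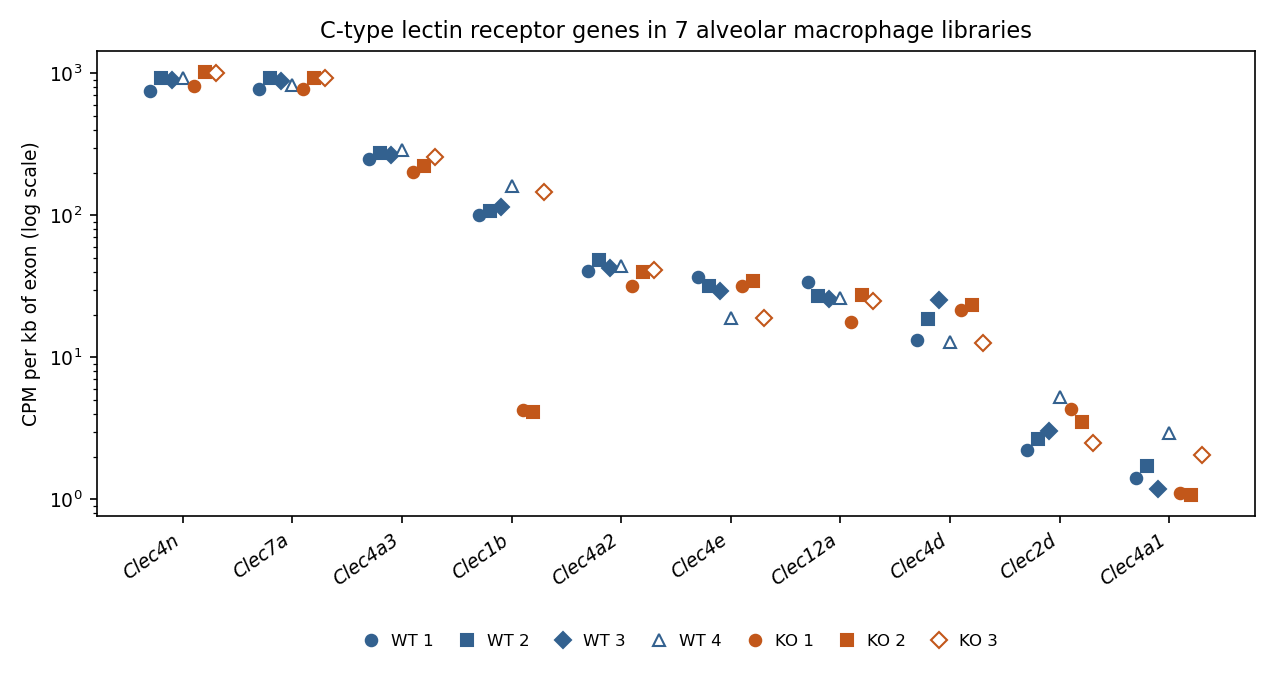
Level of each member in every library, as CPM per kb of exon on a log axis, with genes ordered by the WT mean; blue points are WT, orange points KO, and open symbols mark WT 4 and KO 3. Clec1b is the gene with a wide gap, with KO 1 at 4.24 and KO 2 at 4.10 CPM per kb against 146 in KO 3.

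Clec7a and Clec4n had the highest levels of the activating receptors, and neither separated the genotypes. Clec7a, the receptor for fungal beta-glucans, stood at 1761, 2108, 2011 and 1895 CPM in WT 1 to 4 and at 1764, 2117 and 2122 CPM in KO 1 to 3. The groups overlapped almost completely, with means of 1944 ± 150 and 2001 ± 205 CPM and a log2 fold change of 0.04 (SE 0.10), whose sign was negative under 5 of 17 other settings, among them scaling by library size alone. Clec4n, or Dectin-2, binds fungal mannans and signals through Fcer1g. It stood at 939, 1154, 1117 and 1147 CPM in WT 1 to 4 and at 1015, 1272 and 1241 CPM in KO 1 to 3. WT 1 and KO 1 were the lowest libraries of their groups, the groups overlapped, and the log2 fold change was 0.11 (SE 0.11).

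Clec4d (MCL) and Clec4e (Mincle) are neighbouring genes for receptors of mycobacterial glycolipids that also use Fcer1g. Clec4e stood at 92.5, 80.5, 73.8 and 47.4 CPM in WT 1 to 4 and at 80.3, 86.6 and 47.6 CPM in KO 1 to 3. WT 4 and KO 3 were the low libraries and had nearly the same level, a difference within each genotype that exceeded the one between genotypes (log2 fold change -0.04, SE 0.25). Clec4d stood at 17.6, 24.6, 33.7 and 17.1 CPM in WT 1 to 4 and at 28.7, 31.0 and 16.8 CPM in KO 1 to 3. Here too WT 4 and KO 3 were lowest in their groups, with WT 1 beside them, and the log2 fold change was 0.13 (SE 0.27). The sign of the Clec4e value was positive under 5 of 17 other settings and that of Clec4d negative under 1 of 17.

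The inhibitory receptors and their relatives had somewhat lower means in KO, with all groups overlapping. Clec4a2, or DCIR, carries an ITIM. It stood at 106, 127, 111 and 115 CPM in WT 1 to 4 and at 83.2, 104 and 108 CPM in KO 1 to 3, with a log2 fold change of -0.22 (SE 0.11). KO 1 was the lowest of all 7 libraries, and KO 3 lay inside the WT range. Clec4a3, a close relative, stood at 329, 362, 352 and 383 CPM in WT and at 269, 297 and 340 CPM in KO. KO 1 and KO 2 were below every WT library and KO 3 was inside the WT range, and the log2 fold change was -0.24 (SE 0.10). Clec4a1, another relative, was low, at 1.85 to 4.57 CPM in WT, 1.72 in KO 1, 1.67 in KO 2 and 3.20 in KO 3 (log2 fold change -0.36, SE 0.37). The Clec4a genes are close paralogs, and reads shared among them may have been counted for any of them, so their separate values are uncertain.

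Clec12a, or MICL, is an ITIM receptor for uric acid crystals. It stood at 85.6, 68.1, 64.6 and 65.1 CPM in WT 1 to 4 and at 44.1, 68.7 and 62.8 CPM in KO 1 to 3. WT 1 was high and KO 1 low, and the other 5 libraries lay within a few CPM of each other. The log2 fold change was -0.28 (SE 0.16). Clec2d, or Clr-b, is the exception by role, since it is a ligand for the natural killer receptor Klrb1b. It stood at 2.71, 3.25, 3.69 and 6.41 CPM in WT and 5.22, 4.27 and 3.02 CPM in KO, with a log2 fold change of 0.06 (SE 0.32) that became 0.56 without WT 4 and KO 3 and was negative under 3 of 16 other settings.

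**Figure D2:**
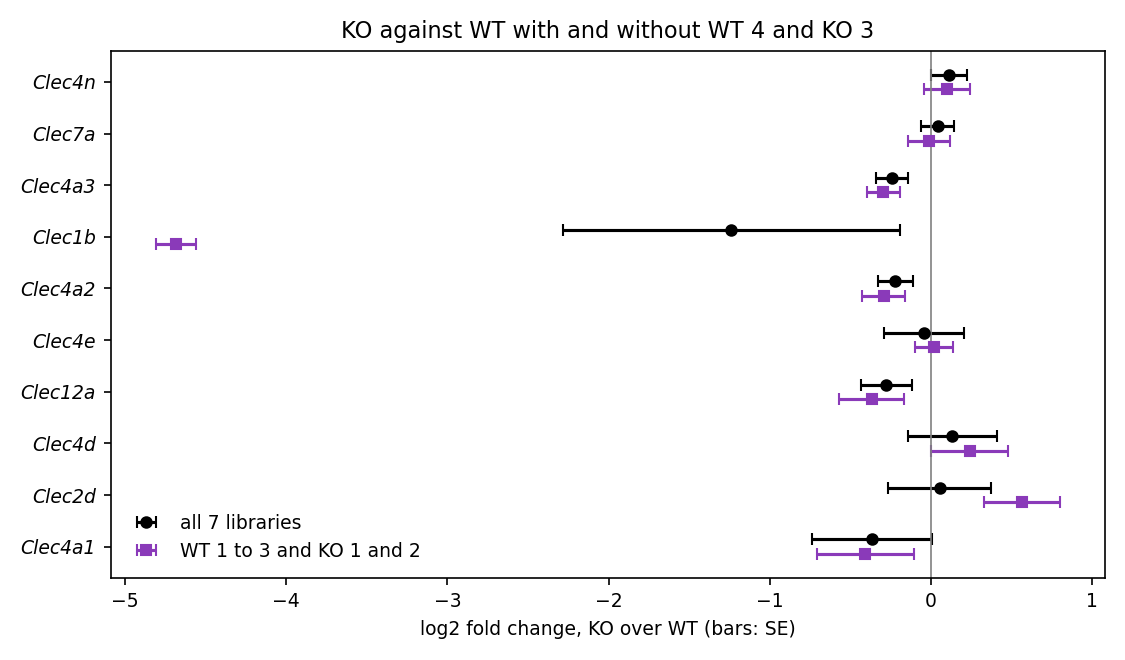
Log2 fold change of KO over WT for each member, with SE as bars, fitted on all 7 libraries (black circles) and on WT 1 to 3 with KO 1 and 2 (purple squares). Clec1b moves from -1.24 to -4.69, and its bar shrinks because KO 3, the KO library with Clec1b at WT level, is left out. The other 9 members stay between -0.41 and 0.56.

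All 10 members passed the filter on low counts. Across all genes, edgeR's quasi-likelihood test called 11 of 12759 at a Benjamini-Hochberg adjusted p below 0.05, or 0.0862%, and it called 0 of the 10 members. DESeq2 called 753 of 13198 genes, or 5.71%, and 0 of the 9 members it gave an adjusted p, which leaves out Clec1b. At an unadjusted p below 0.05, edgeR passed 2296 of all genes tested, or 18.0% (9.15% higher and 8.85% lower in KO), and 1 member, on the lower side. WT and KO libraries did not overlap for 2036 of 12759 genes, or 16.0%, and for 0 members. Because the members were chosen with this comparison in view, nothing is read from these counts. The median log2 fold change was -0.13 over the members, with 4 higher and 6 lower, and 0.00 over all genes tested, with 6448 higher and 6311 lower. With WT 4 and KO 3 left out, 590 of 12906 genes were called, or 4.57%, and Clec1b was the 1 member among them. KO 3 is the KO library with Clec1b at WT level, so that call followed from leaving it out and is not a test of the gene.

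Levels can be compared between genes only per length of transcript. As CPM per kb of exon in WT, Clec4n (877 ± 81.8, SD, n = 4) and Clec7a (854 ± 65.8) led and did not differ beyond their spread. Clec4a3 (269 ± 17.1) and Clec1b (121 ± 27.9) followed, each apart from its neighbours. Clec4a2 stood at 43.9 ± 3.36 CPM per kb, and below it Clec4e (29.2 ± 7.56) and Clec12a (28.3 ± 3.97) overlapped. Clec4d stood at 17.6 ± 5.88 CPM per kb with a range that met that of Clec4e, while Clec2d (3.31 ± 1.36) and Clec4a1 (1.82 ± 0.777) were lowest and overlapped. The order of the KO means was the same. Clec1b was thus the fourth receptor of the set in WT macrophages and in KO 3, and it stood below Clec4d in KO 1 and KO 2.

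The genes whose profiles over the 7 libraries were nearest to each of 3 members were sought among 10600 genes. The distance was the root-mean-square difference of centred log2 CPM. For Clec1b the nearest was the histone gene Hist1h2bf at a distance of 0.83, with 2.32 to 6.07 CPM in WT and 0.198, 0.544 and 3.60 CPM in KO 1 to 3. Nav1 followed at 0.93, with 16.2 to 38.7 CPM in WT and 2.24, 2.72 and 21.4 CPM in KO. Lrmda followed at 0.94, with 17.5 to 18.6 CPM in WT and 2.18, 2.56 and 16.7 CPM in KO. All 3 were low in KO 1 and KO 2 and at or near WT levels in KO 3, but the drop was smaller than that of Clec1b. Clec7a was nearest to Kdm1a (0.034), Zfp809 (0.042) and Stx16 (0.050), and Clec4n to Kdm1a (0.059), Zfp809 (0.067) and Rnf20 (0.070), all genes with flat profiles.

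The members fall into 2 clusters on chromosome 6 of GRCm38.p6, per RefSeq. Clec4a1 (122921848-122934619), Clec4a3 (122952515-122969878), Clec4a2 (123122690-123143999), Clec4n (123229843-123247024), Clec4d (123262107-123275268) and Clec4e (123281789-123289871) form the first. Clec2d (129180615-129186535), Clec12a (129349783-129365303), Clec1b (129397297-129405413) and Clec7a (129461591-129472785) form the second. The span of Clec1b overlaps that of Clec12b, a related receptor with at most 36 reads in any library. The nearest members to Clec1b, Clec12a and Clec7a, did not share its split.

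Several other genes near Clec1b also set KO 1 and KO 2 apart from the remaining libraries, some with higher levels and some with lower. Among the lower ones, Clec9a stood at 1.75 to 3.63 CPM in WT and at 1.19, 1.13 and 3.35 CPM in KO 1 to 3. Tmem52b stood at 2.32 to 2.94 CPM in WT and at 1.39, 1.67 and 2.57 CPM in KO 1 to 3. Pzp had a WT mean of 4.98 CPM and stood at 2.38, 1.09 and 6.10 CPM in KO 1 to 3. These drops were smaller than that of Clec1b. Within 1 Mb, 20 other genes, 3 of them members, passed the filter on low counts with all 7 libraries, and edgeR called 0 of these, with an adjusted p of 0.146 for Klrb1b and 0.103 for Klrb1c. DESeq2 gave an adjusted p for 27 genes of the window and called 5, where it called 5.71% of all genes. Klrb1c, Klrb1b, Gm15987 and Klra9 were higher in KO. Fkbp4 was lower, with 173 to 216 CPM in WT and 147 to 168 CPM in KO. Klrb1c, Gm15987 and Klra9 had few reads outside KO 1 and KO 2, so their direction says little, and nothing is read from the count of 5. With WT 4 and KO 3 left out, edgeR called 2 of the same 20 genes, Klrb1c and Klrb1b, both higher in KO. That fit called 4.57% of all genes. A further 9 genes passed the filter only in that fit, and 5 of them were called, all higher: Gm15987, BC064078, Klra17, Klra9 and Klra10. These 5 were nearly silent in WT and passed the filter through KO 1 and KO 2, where they are high, so their direction was fixed by the filter and their number is not set against other genes. That fit was also chosen with the split of Clec1b already known.

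Klrb1b, the natural killer receptor that binds Clec2d, was the only 1 of the higher genes with more than 5 CPM. It stood at 8.34, 9.13, 8.97 and 7.13 CPM in WT 1 to 4 and at 16.4, 17.1 and 8.68 CPM in KO 1 to 3. KO 3 was inside the WT range, and the other KO libraries were above every WT library. Klrb1c, which encodes the NK1.1 antigen in C57BL/6 mice, had 2 to 11 reads in WT, 89 in KO 1, 101 in KO 2 and 4 in KO 3. Gm15987 had 2 to 10 reads in WT, 98 in KO 1, 56 in KO 2 and 7 in KO 3. Klra9, of the Ly49 receptor family, had 0 to 5 reads in WT, 24 in KO 1, 58 in KO 2 and 3 in KO 3. Klra10 had 0 reads in every WT library and in KO 3, 14 in KO 1 and 38 in KO 2. The Klra genes are near-identical paralogs and may hold reads of one another. In these 4 genes KO 3 was within the WT range. BC064078 had 0 to 2 reads in WT, 16 in KO 1, 15 in KO 2 and 6 in KO 3, so that KO 3 was above WT there, and Klra17 had 0 to 7 reads in WT, 18, 17 and 3 in KO 1 to 3.

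Markers of B, T and natural killer cells were also summed. The 12 markers summed to 2.99 to 7.82 CPM in WT, 16.0 in KO 1, 11.2 in KO 2 and 4.89 in KO 3. Klrb1c, named above, is among them and stood at 0.0636 to 0.344 CPM in WT, 2.94 in KO 1 and 3.92 in KO 2. The 3.92 CPM exceed the gap between KO 2 and the highest WT sum, so the excess in KO 2 rests on Klrb1c. In KO 1, where Klrb1c stood at 2.94 CPM, the sum stayed above every WT sum without it. The natural killer receptor Ncr1 was at 0 to 0.0954 CPM in WT, 0.198 in KO 1, 0.272 in KO 2 and 0 in KO 3. Gzma, a protease of cytotoxic lymphocytes, was at 0.469 to 1.34 CPM in WT, 1.78 in KO 1, 1.48 in KO 2 and 0.110 in KO 3. Klrk1, a natural killer receptor in the same window, was not called in either fit and stood at 0.252 to 1.00 CPM in WT and 0.594, 0.622 and 0.735 CPM in KO. The part of such cells in the Klr values was not tested.

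**Figure D3:**
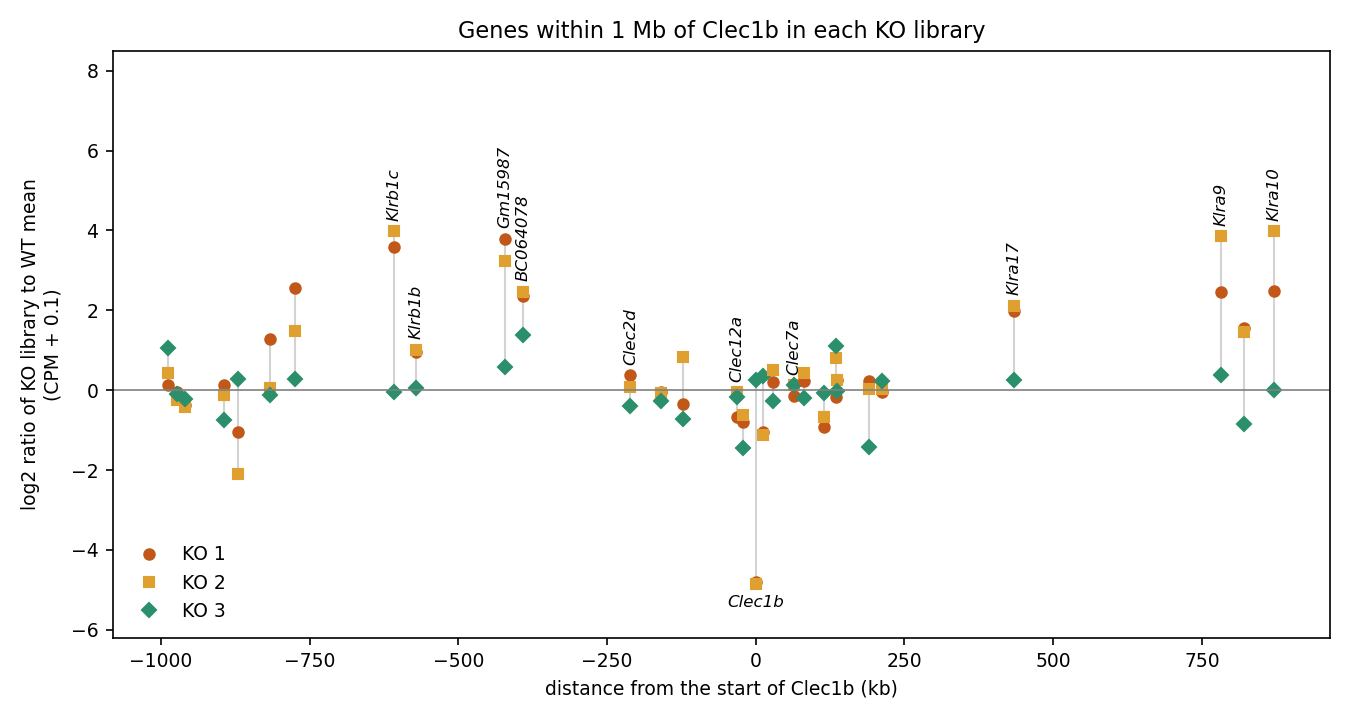
Log2 ratio of each KO library to the WT mean (CPM plus 0.1) for the genes within 1 Mb of Clec1b, against distance in kb from the start of Clec1b; grey lines join the 3 KO libraries of a gene. KO 1 and KO 2 lie far below 0 at Clec1b and above 0 at Klrb1c, Klrb1b, Klra9 and Klra10, while KO 3 lies near 0 at these genes.

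Among self ligands and partners of the members, 7 genes were tested, 2 had higher and 5 lower means in KO, and edgeR called 0 of 7. Podoplanin (Pdpn), the ligand of Clec1b, stood at 14.8, 14.9, 20.6 and 17.7 CPM in WT 1 to 4 and at 7.66, 9.91 and 18.7 CPM in KO 1 to 3. It was therefore also low in KO 1 and KO 2 and within the WT range in KO 3, and edgeR's adjusted p was 0.384 over 7 libraries and 0.0489 without WT 4 and KO 3 (log2 fold change -0.93). KO 3 is the KO library with Pdpn inside the WT range. The lower p followed from leaving it out and is not a test of the gene. Pdpn was named for its role after its values were seen. Podoplanin is also a marker of lung epithelium. In the list of epithelial and endothelial markers, Epcam had the lower mean in KO and the other 9 had the higher. Epcam stood at 135 to 302 CPM in WT and at 9.24, 29.5 and 92.6 CPM in KO 1 to 3. Ager, a marker of flat alveolar cells, stood at 0.700 to 3.25 CPM in WT and at 6.21, 12.1 and 1.18 CPM in KO 1 to 3, and the surfactant gene Sftpc at 12.9 to 47.2 and at 69.5, 63.1 and 19.2 CPM. The part of epithelial RNA in the Pdpn values was not tested. Klrb1b was higher in KO by DESeq2 (adjusted p = 0.0316). Lgals9, a galectin that binds Clec7a, stood at 124 to 153 CPM in WT and 98.5 to 122 in KO without overlap, and Anxa1, another Clec7a ligand, at 1430 to 1588 and 1337 to 1397 CPM. Neither passed a test, with edgeR adjusted p of 0.219 and 0.400.

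The signalling list below activating receptors held 41 genes, all tested, with 16 higher and 25 lower in KO. Their median log2 fold change was -0.02. None of the 41 was called by edgeR. At an unadjusted p below 0.05 stood 9 of 41, near the 18.0% of all genes, and 8 of the 9 were lower, where 8.85% of all genes stood. DESeq2 called 3 of 40, all lower, near the 5.71% of all genes, among them Fgr and Tab1. Fgr is a Src-family kinase that phosphorylates ITAMs. Fgr stood at 293 to 361 CPM in WT and 173 to 255 CPM in KO, without overlap (log2 fold change -0.57; adjusted p = 0.109 by edgeR and 0.00565 by DESeq2). Tab1, a partner of the kinase TAK1, had means of 13.0 and 7.63 CPM (adjusted p = 0.102 by edgeR and 0.00411 by DESeq2). Lyn, another Src-family kinase, stood at 365 to 423 and 329 to 362 CPM and passed neither test. For both Fgr and Lyn, KO 3 lay between KO 1 and KO 2, whereas for Clec1b it stood apart from them.

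The partner chain and the central kinase and adaptor were also examined, named for their role after their values were seen. Fcer1g stood at 1262 to 1594 CPM in WT and 1324 to 1535 CPM in KO, and Syk at 139 to 178 and 147 to 192 CPM, with overlap in both. Card9 stood at 46.9, 14.9, 13.0 and 47.5 CPM in WT 1 to 4 and at 11.3, 15.3 and 50.1 CPM in KO 1 to 3. Its level thus fell into a high set (WT 1, WT 4 and KO 3) and a low set that each held libraries of both genotypes.

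A list of 15 genes was drawn up as brakes on ITAM signalling, though not all of them act only as brakes. All 15 were tested, and 11 had lower means in KO (median log2 fold change -0.19). EdgeR called 0 of 15, with 6 at an unadjusted p below 0.05, all on the lower side, where 8.85% of all genes stood. DESeq2 called 3 of 15, all lower, against 5.71% of all genes in either direction. The 3 were Csk, the kinase that switches off Src-family kinases, with 51.0 to 56.5 CPM in WT and 36.4 to 44.9 CPM in KO (log2 fold change -0.43), the phosphatase gene Ubash3b with 119 to 184 and 96.2 to 107 CPM (-0.58), and the SH2 adaptor Sh2d1b1 with 169 to 207 and 135 to 165 CPM (-0.38). Their DESeq2 adjusted p values were 0.00460, 0.00356 and 0.0240, and those of edgeR 0.0950, 0.102 and 0.125. In each of the 3 every KO library was below every WT library.

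Of 26 genes switched on by these pathways in stimulated phagocytes, 18 were tested, and 17 had higher means in KO. The median log2 fold change of the 18 was 0.75. Over all genes, 6448 of 12759 were higher in KO. EdgeR called 0 of 18, with 6 at an unadjusted p below 0.05, all on the higher side, where 9.15% of all genes stood. DESeq2 called 2 of 18, against 5.71% of all genes in either direction. Both were higher: the chemokine Cxcl3 and the cytokine Il1b. Cxcl3 stood at 14.9, 12.1, 9.10 and 13.7 CPM in WT and 28.0, 24.7 and 28.2 CPM in KO (log2 fold change 1.11; adjusted p = 0.0519 by edgeR and 1.46e-07 by DESeq2). Il1b stood at 77.8 to 184 CPM in WT and 209 to 240 CPM in KO (0.71; adjusted p = 0.184 by edgeR and 0.0415 by DESeq2). Other genes of the list were uneven among KO libraries. Cxcl1, named after its values were seen, stood at 9.73 to 27.2 CPM in WT and at 118, 56.9 and 7.43 CPM in KO 1 to 3, so that KO 3 was below every WT library. KO 3 was also below every WT library for Tnf, Il1a, Cxcl2, Egr1 and Egr2. It was above every WT library for Cxcl3, Il1b and, narrowly and at a low level, Csf2. The higher means of many list genes thus came from KO 1 and KO 2. The neutrophil marker sum, mostly S100a8, was 7.76 to 20.2 CPM in WT and 35.3, 21.1 and 13.3 CPM in KO 1 to 3. Of the other markers of that list, S100a9 was at most 1.54 CPM, in WT 1, and Ly6g was at 0 in every library. The part of neutrophil RNA in the values of the output genes was not tested.

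**Figure D4:**
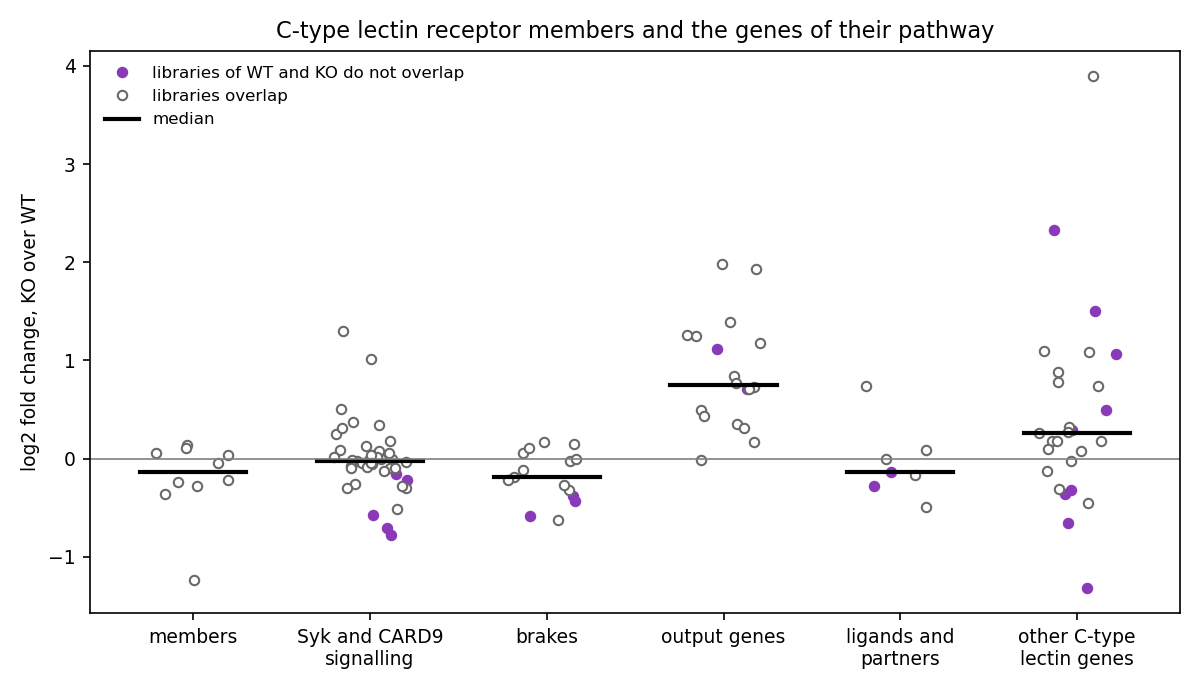
Log2 fold change of KO over WT for each tested gene of the members and 5 pathway lists, with a bar at the median and filled points where WT and KO libraries did not overlap. The output genes lie mostly above 0 with a median of 0.75, while the signalling genes and brakes have medians of -0.02 and -0.19.

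Of 71 other genes for C-type lectin domain proteins, 70 were in the table and 27 were tested, with 19 higher and 8 lower in KO. Their median log2 fold change was 0.26. EdgeR called 0 of 27, with 11 at an unadjusted p below 0.05, against 18.0% of all genes. DESeq2 gave an adjusted p for 34 of the genes and called 10 of them, against 5.71% of all genes. The 6 higher by DESeq2 were Clec14a, Mrc1, Ly75, Thbd, Klrb1c and Klrb1b, and the 4 lower were Cd302, Clec4b1, Klra2 and Cd209b. Klrb1c had few reads outside KO 1 and KO 2, so its direction says little. Thbd (thrombomodulin) stood at 27.3 to 54.8 CPM in WT and 61.2 to 104 CPM in KO, and Ly75, the endocytic receptor DEC-205, at 89.6 to 107 and 119 to 162 CPM. Their DESeq2 adjusted p values were 0.000435 and 0.00533. Klra2, an inhibitory Ly49 family receptor found on myeloid cells, stood at 135 to 179 CPM in WT and 78.7 to 111 CPM in KO (log2 fold change -0.65; DESeq2 adjusted p = 0.00244). Clec4b1, a paralog beside the Clec4a genes, stood at 69.3 to 80.6 and 57.4 to 61.6 CPM (-0.32; DESeq2 adjusted p = 0.0251), and Cd302 at 618 to 728 and 490 to 562 CPM (-0.36; 0.0141). Cd93, a receptor also found on endothelium, stood at 1.63 to 18.9 CPM in WT and 26.6 to 49.6 CPM in KO without overlap, and it passed neither test (edgeR adjusted p = 0.141, DESeq2 adjusted p = 0.101). Thbd, Clec14a and Cd93 are also genes of endothelium, and endothelial markers were higher in the KO libraries too. Pecam1 stood at 0.445 to 1.47 CPM in WT and 1.62 to 4.29 CPM in KO, Cdh5 at 0.0318 to 0.188 and 0.583 to 0.924 CPM, and Kdr at 0.0954 to 0.469 and 0.404 to 0.738 CPM. The part of endothelial RNA in these values was not tested.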

How the data were processed

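Per the labels, alveolar macrophages were sorted into TRIzol LS, RNA was purified with a Zymo kit, and Nextera XT, which does not mark the strand, was used for the libraries. The authors deposited raw read counts per gene symbol, made with rsubread per the file name. The submitters' processing notes name mm10 and DESeq2. Which annotation was used, and how reads with several matches were counted, was not given in the sources used here.

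The table had 27179 rows. The 1036 rows without a symbol, with 0.376% to 0.424% of the counts, were left out. The 4 WT and 3 KO libraries were grouped by genotype as labelled. No 2 libraries of a genotype were alike within sampling noise (chi-square per gene 27.0 to 115). In R 4.3.3, edgeR 4.0.16 was fitted on all genes left by filterByExpr, with TMM factors, and genotype alone was tested by quasi-likelihood (5 residual degrees of freedom, common biological coefficient of variation 0.187), and p-values were adjusted over 12759 genes. The procedure was tested on simulated data. CPM values use the TMM factors. Levels per kb use the exons of GENCODE transcripts that match RefSeq messenger RNAs. Without molecular identifiers, copies of a molecule cannot be told apart.

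The members and lists were chosen with earlier results of these data known. Named from each list were genes called by edgeR and up to 6 with the largest log2 fold changes among those at 10 CPM or more without overlap of the groups, else the 2 most abundant. Other genes named, those called by DESeq2 alone among them, were chosen after their values were seen. Named of each cell type list was the most abundant marker. Some genes that these rules name are not reported here. Alternatives were DESeq2 1.42.0, other scaling factors, other filters, limma 3.58.1 voom with sample weights, the replicate number as a block, a term for WT 4 and KO 3, and libraries left out. The count near Clec1b without WT 4 and KO 3 was added after the data were seen.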

Additional observations from a re-analysis of the deposited data

Results flagged for a closer look

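In WT, 2 of the 10 members had 1 library set apart from the other 3 by more than Dixon's 95% critical value for 4 samples. For Clec4n, WT 1 stood at 939 CPM, with the nearest library at 1117 CPM, a gap of 0.830 of the whole range. For Clec12a, WT 1 stood at 85.6 CPM, with the nearest library at 68.1 CPM, a gap of 0.836 of the range. WT 1 was thus the low library for one receptor and the high library for the other. Chance flags about 1 in 20 groups, and 10 groups were tested. The KO group, with 3 libraries, is too small for this check, so the split of Clec1b there was not tested by it.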

How the results depend on the processing

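The number of called genes, 11 over all genes, depended on the setting: 753 with DESeq2, 397 with no filter, 21 with at least 5 CPM in at least 3 libraries, 46 with voom, 19 with a term for WT 4 and KO 3, 590 without both, and 7 (without WT 1) to 284 (without WT 4) with 1 library left out, with 217 without KO 3. For the members, 0 became 1, Clec1b, without KO 3 and without WT 4 and KO 3 together, and leaving out 1 library gave 0 to 1. Since KO 3 is the KO library with Clec1b at WT level, this change followed from leaving it out and is not a test of the gene. The signalling list went from 0 to 3 with DESeq2, 3 with no filter, 1 with voom, 4 without WT 4 and KO 3, and 0 to 4 with 1 library left out. The brakes went from 0 to 3 with DESeq2, 2 with no filter, 2 without both, and 0 to 1 with 1 left out. The output genes went from 0 to 2 with DESeq2, 1 with no filter, 1 with the stricter filter, 1 with voom, 3 without both, and 0 to 3 with 1 left out. The ligands went from 0 to 1 with DESeq2, 2 without both, and 0 to 1 with 1 left out. The other lectin genes went from 0 to 10 with DESeq2, 6 with no filter, 1 with voom, 5 without both, and 0 to 2 with 1 left out. The genes within 1 Mb of Clec1b went from 0 to 7 without both, 5 of them tested only there. The cause of the other differences was not tested.

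The log2 fold change of Clec1b, -1.24, was -3.13 with voom, -3.09 with the replicate block, -3.36 with a term for WT 4 and KO 3, -4.69 without both, and -4.86 (without KO 3) to -0.70 with 1 library left out. That of Clec2d was 0.56 without both. The members' median stayed negative, between -0.21 and -0.10, under the 17 alternatives.

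The replicate block gave 430 called genes, with 0 members, 4 signalling genes, 2 brakes, 2 output genes and 6 other lectin genes. The same numbers did not pair the libraries: correlations of deviations were -0.01, 0.14 and -0.02 for numbers 1 to 3, and not every library correlated best with its own number. With 3 and 4 libraries a group, differences within the spread between libraries were not detectable.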
